A study of Mus musculus with 8 samples.

Results

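Ttr, Kl, Folr1, Clic6, Otx2 and Kcne2, 6 genes typical of the choroid plexus epithelium, and Cgn, a gene of epithelial junctions, were followed in CD11b+ cells of the neonatal mouse brain. The 7 genes were chosen with their levels on these arrays known, among them the wide spread within each treatment group. Their levels and LPS minus saline differences are therefore given as a description with no test. Probes were taken by the gene name in the scanner data, which gave 13 probes of 56599, and all 7 genes were among the 22509 genes with a probe well above background on at least 4 arrays.

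The study compared saline with lipopolysaccharide (LPS, from the outer membrane of Gram-negative bacteria) in male C57BL/6N mice aged 7 days, with tissue taken after 24 h. The saline mice and the LPS mice shared strain, sex and age, and carried no stated genetic change. The dose and the route of LPS are not given in the sources used here. Magnetic beads against CD11b, an integrin chain of microglia and other myeloid cells, were used to sort cells from the brains of 2 mice pooled in a tube, and the 4 tubes of each treatment gave 1 single-colour array each. The sort aims at myeloid cells, and all 11 measured markers of microglia and macrophages were well above background on all 8 arrays. So were all 16 endothelial, 14 fibroblast and mural and 10 astrocyte markers measured. Of the markers measured, 9 of 12 ependymal, 8 of 9 oligodendrocyte lineage and 7 of 8 neuronal ones were too. Presence on the arrays is thus no measure of how pure the sort was. Choroid plexus epithelium is not known to carry CD11b. Of the 13 probes of the 7 genes, 10 were well above background on every array.

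The choroid plexus hangs into the ventricles of the brain and makes most of the cerebrospinal fluid. Its epithelium is a single sheet of ciliated cells that pump salt and water, carry vitamins and hormones from blood into the fluid, and seal the gaps between them with tight junctions. Macrophages live on and beneath this sheet, and ependymal cells, which line the rest of the ventricles, lie next to it.

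Upstream sequences of genes that moved together, and of Cgn, whose strongest probe followed another pattern and also lists a pseudogene, are shown for comparison. They are the 250 bases before the annotated start in RefSeq (GRCm38.p6), at chr5:150952357-150952606 for Kl, chr14:48667645-48667894 on the minus strand for Otx2, chr16:92292139-92292388 for Kcne2 and chr3:94786483-94786732 on the minus strand for Cgn. Where the table held more than 1 start, as for Otx2 with 4 and Kcne2 with 2, the outermost was taken. Capitals mark every match, on either strand, to 5 short motifs. TAATCC, with its shorter form TAATC which every full match also holds, is known as a binding motif of Otx factors. The others were the promoter element CCAAT, the core promoter box TATAAA and the E-box sequence CACGTG.
Kl: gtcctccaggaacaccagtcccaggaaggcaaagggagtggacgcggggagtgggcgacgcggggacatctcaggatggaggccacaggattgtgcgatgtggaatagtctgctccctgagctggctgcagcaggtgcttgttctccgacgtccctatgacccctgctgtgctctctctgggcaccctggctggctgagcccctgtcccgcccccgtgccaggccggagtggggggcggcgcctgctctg
Otx2: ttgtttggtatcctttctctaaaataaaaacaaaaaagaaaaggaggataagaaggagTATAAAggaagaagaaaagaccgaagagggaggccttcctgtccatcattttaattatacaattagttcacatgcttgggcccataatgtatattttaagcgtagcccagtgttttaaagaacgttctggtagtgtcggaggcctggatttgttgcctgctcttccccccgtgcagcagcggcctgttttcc
Kcne2: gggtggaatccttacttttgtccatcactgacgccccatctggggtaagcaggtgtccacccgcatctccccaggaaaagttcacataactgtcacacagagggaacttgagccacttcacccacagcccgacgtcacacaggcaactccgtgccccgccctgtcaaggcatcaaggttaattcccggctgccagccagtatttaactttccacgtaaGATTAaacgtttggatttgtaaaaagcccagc
Cgn: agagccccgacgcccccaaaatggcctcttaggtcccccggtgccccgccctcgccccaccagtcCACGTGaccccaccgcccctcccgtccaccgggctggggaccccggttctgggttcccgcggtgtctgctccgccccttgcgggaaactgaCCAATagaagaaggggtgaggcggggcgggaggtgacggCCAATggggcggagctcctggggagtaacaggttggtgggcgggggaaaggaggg

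The Kl window held none of the 5 motifs. The Otx2 window held 1 TATAAA, 192 bases before the start, and the Kcne2 window 1 TAATC on the opposite strand, 32 bases before the start. The Cgn window held 2 CCAAT, 94 and 55 bases before the start, and 1 CACGTG at 185 bases. Over all 32851 windows of the same length, 6.25% held TAATCC, 19.8% TAATC, 33.8% CCAAT, 12.4% TATAAA and 6.02% CACGTG. No motif was present in more than 1 of the 4 windows. The GC content was 66.8% for Kl, 42% for Otx2, 52.4% for Kcne2 and 70.4% for Cgn. Folr1, Clic6 and Ttr are not shown.

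On the arrays, genes were read by probes of 60 bases. The following probes are shown because each reads a member away from its most strongly hybridising probe, Otx2 at transcript position 331 (mm9 chr14:49281026-49281085, minus strand), within the coding sequence of the homeodomain, and Cgn at position 1790 (mm9 chr3:94577435-94577494, minus strand). No base is marked in them.
Otx2 probe: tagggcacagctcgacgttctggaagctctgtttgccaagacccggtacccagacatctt
Cgn probe: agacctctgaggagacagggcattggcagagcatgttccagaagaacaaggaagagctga

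Levels are processed signals scaled so that every array has the same 75th percentile (170.9), and differences are on the log2 scale as LPS minus saline ± standard error, with 4 arrays per group. Levels of different probes cannot be set against each other. Replicate numbers name arrays in order of deposition and mark no pairing in the labels, but the arrays with the same number lay in the same column of 1 slide.

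Ttr encodes transthyretin, which the choroid plexus secretes into cerebrospinal fluid as a carrier of thyroxine and, with retinol binding protein, of vitamin A. Its signal at transcript position 428 was 23485, 18798, 49730 and 46331 on saline arrays 1 to 4 and 9183, 20341, 45802 and 30185 on LPS arrays 1 to 4. Within each treatment arrays 3 and 4 lay above arrays 1 and 2, and the groups overlapped. The highest array exceeded the lowest 2.65-fold within saline and 4.99-fold within LPS. The group difference was -0.49 ± 0.61, smaller than the SD of 0.70 among saline arrays and of 0.99 among LPS arrays. A probe at position 1005 gave -0.89 ± 0.74, again with overlapping groups.

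Kl encodes alpha-klotho, the co-receptor that lets FGF receptors bind the hormone FGF23. Its probe at position 5027 (mm9 chr5:151796302-151796361) read 65.2, 53.0, 162.6 and 158.2 on saline arrays 1 to 4 and 28.7, 69.0, 173.8 and 124.2 on LPS arrays 1 to 4. LPS array 3 was the highest of all 8 arrays and LPS array 1 the lowest, so the LPS group spanned the whole saline range. The difference was -0.26 ± 0.71. The probe at position 5757 was not well above background on any array.

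Folr1 encodes folate receptor alpha, which moves folate through the choroid plexus epithelium into the fluid. At position 1333 (mm9 chr7:109006846-109006905, minus strand) it read 904.8, 516.1, 1529 and 1453 on saline arrays 1 to 4 and 198.3, 453.5, 1140 and 601.4 on LPS arrays 1 to 4. The saline arrays 3 and 4 were the highest and LPS array 1 was the lowest, with the others mixed. The difference of -1.02 ± 0.64 was the largest in size among the 6 choroid plexus genes, a 2.03-fold higher geometric mean after saline. The probe at position 362 gave -1.29 ± 0.57 and was well above background on 4 saline and 3 LPS arrays.

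Clic6 belongs to the chloride intracellular channel family and Kcne2 encodes a small accessory subunit of potassium channels such as Kcnq1 and Kcna3, placed at the apical face of the epithelium. Clic6 (position 3619, mm9 chr16:92541363-92541422) read 473.2, 230.9, 978.3 and 888.7 on saline arrays 1 to 4 and 96.0, 234.0, 1126 and 341.4 on LPS arrays 1 to 4. Its 11.7-fold range within LPS was the widest of the 6 genes, the difference being -0.86 ± 0.88. Kcne2 (position 1470, mm9 chr16:92298155-92298214) read 267.9, 208.4, 743.2 and 678.3 on saline arrays 1 to 4 and 83.9, 168.0, 578.4 and 274.2 on LPS arrays 1 to 4. For both genes the groups overlapped, and for Kcne2 the difference was -0.91 ± 0.75.

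Otx2 encodes a homeodomain transcription factor that the choroid plexus needs to form, and whose protein is also released into the cerebrospinal fluid. Its probe at position 1788 (mm9 chr14:49277855-49277914, minus strand) read 350.3, 166.7, 710.7 and 665.6 on saline arrays 1 to 4 and 84.7, 192.7, 810.4 and 289.9 on LPS arrays 1 to 4. LPS array 3 was above every saline array and LPS array 1 below every one. The difference was -0.71 ± 0.83. The homeodomain probe shown above gave -0.52 ± 0.80, and the probe at position 185 gave -0.30 ± 0.49, and all 3 probes were well above background on all arrays.

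**Figure D1:**
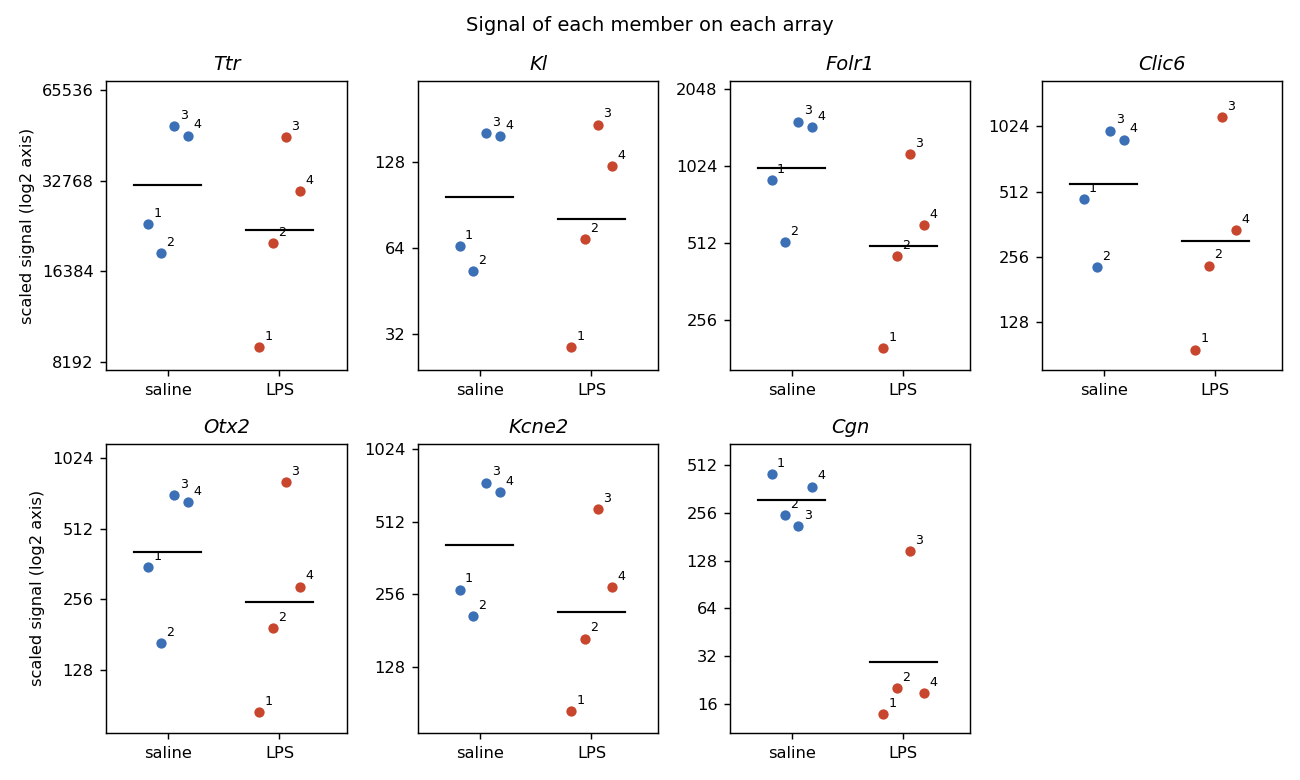
Scaled signal (log2 axis, each gene with its own scale) of the main probe of each gene on the 4 saline arrays (blue) and 4 LPS arrays (red). Numbers are the replicates and bars the geometric means of 4 arrays. The groups overlap for the 6 choroid plexus genes, with Ttr at 18798 to 49730 after saline and 9183 to 45802 after LPS, and are apart for Cgn, at 211.7 to 451.5 and 13.7 to 147.2.

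All 6 differences lay below 0, as did those of 48.2% of all genes tested, and in all 6 the groups overlapped. Arrays of the same slide column gave different pictures. In columns 1 and 4 the LPS array was the lower one for all 6 genes, with log2 differences from -2.30 (Clic6) to -1.18 (Kl) in column 1 and from -1.38 (Clic6) to -0.35 (Kl) in column 4. In column 2 the LPS array was the higher one for Ttr (0.11), Kl (0.38), Clic6 (0.02) and Otx2 (0.21), and in column 3 for Kl (0.10), Clic6 (0.20) and Otx2 (0.19). Without LPS array 1 the difference of Kl was 0.23, above 0, and that of Ttr -0.06. With array median signals entered as a covariate, all 6 differences were above 0, from 0.25 for Folr1 to 1.13 for Kl. Those medians ran from 15.5 to 21.5 after saline and from 11.7 to 17.3 after LPS. The covariate thus differs with treatment, and wherever it is used here it can take up part of the LPS difference. In a sorted bulk sample, fewer cells of a type and less RNA per cell cannot be told apart.

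The spread of these genes from array to array stood near the top of the data. The SD within groups was 0.86 for Ttr, 1.0 for Kl, 0.90 for Folr1, 1.24 for Clic6, 1.18 for Otx2, 1.06 for Kcne2 and 1.16 for Cgn, against a median of 0.17 over 22509 genes. Between 0.866% (Clic6) and 2.82% (Ttr) of all genes spread more. Since wide variation within groups was part of how the genes were chosen, these ranks describe the choice.

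The 6 choroid plexus genes were high and low on the same arrays. As deviations from the group mean, their 15 pairs correlated over 8 arrays with Pearson r from 0.947 (Kl and Clic6) to 0.999 (Clic6 and Otx2), a median of 0.98 and Spearman rho from 0.976 to 1. Without LPS arrays 3 and 1, which lay farthest out, the median was 0.96 and the lowest 0.94. Their mean log2 level was 1.88, 1.23, 2.99 and 2.90 on saline arrays 1 to 4 and 0.09, 1.27, 2.93 and 1.88 on LPS arrays 1 to 4, relative to the 75th percentile. Within both treatments slide columns 3 and 4 held the higher levels. The arrays also differed in overall brightness, with median signals of 15.9, 15.5, 21.5 and 18.2 after saline and 11.7, 13.1, 17.3 and 13.8 after LPS. Within groups the choroid plexus mean and the log2 median signal had an r of 0.929 and a rho of 1 over 8 arrays. On each array both quantities come from the same library, hybridisation and slide position. The part of brightness in these levels was not tested.

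**Figure D2:**
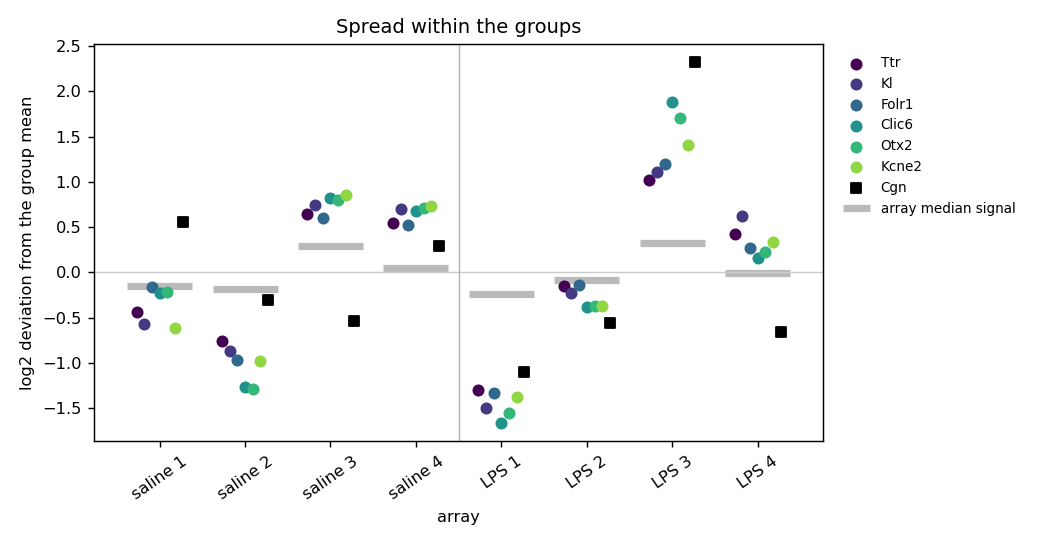
Deviation of each gene from its group mean (log2) on each of the 8 arrays. Circles are the 6 choroid plexus genes, and grey bars are the deviation of the array's median signal. Squares are Cgn, read by a probe that also lists the pseudogene BC021767. The 6 genes lie together on each array, with mean deviations of -1.45 on LPS 1 and 1.39 on LPS 3, while Cgn (0.56, -0.54 and -0.66) lies on the other side of 0 from their means (-0.37, 0.74 and 0.34) on saline 1, saline 3 and LPS 4.

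Cgn encodes cingulin, a protein of the cytoplasmic face of tight junctions that links them to the cytoskeleton. Its probe at position 4906 (mm9 chr3:94564031-94564090, minus strand) read 451.5, 248.5, 211.7 and 374.8 on saline arrays 1 to 4 and 13.7, 20.0, 147.2 and 18.6 on LPS arrays 1 to 4. All saline arrays lay above all LPS arrays, and among the LPS arrays array 3 stood alone. The difference was -3.38 ± 0.82, a 10.4-fold higher geometric mean after saline. Cgn was the only 1 of the 7 genes without overlap between groups, where 44.7% of all genes had none (18.9% lower in LPS), and its values were among those used to choose it. Within slide columns 1 to 4 the differences were -5.04, -3.64, -0.52 and -4.33, so the LPS array was lower in each column. Without LPS array 3 the difference was -4.16, and with normexp background, which adds 50 to every signal, it was -1.93.

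That probe does not read Cgn alone. Its annotation lists, beside transcripts of Cgn, the RNA of BC021767, a transcribed pseudogene on the same chromosome, so the signals of both cannot be told apart there. The Cgn probe at position 1790, shown above and listed for Cgn only, was well above background on 1 of 8 arrays, LPS array 3. It read 2.72, 1.09, 3.80 and 2.87 on saline arrays 1 to 4 and 2.20, 1.13, 6.08 and 1.19 on LPS arrays 1 to 4, a difference of -0.21 ± 0.69 with overlapping groups. The separation of saline and LPS at position 4906 was not seen at position 1790, where 7 of 8 arrays gave only a bound.

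BC021767 has 1 probe of its own, which lists no Cgn transcript (mm9 chr3:94464597-94464656). It read 887.2, 529.5, 430.1 and 751.1 on saline arrays 1 to 4 and 30.0, 43.6, 374.3 and 44.0 on LPS arrays 1 to 4. The order of the saline arrays was that of Cgn at position 4906, and LPS array 3 again stood above the other LPS arrays. BC021767 was at -3.20 ± 0.74, a 9.17-fold higher level after saline. With the median signal as a covariate it was at -2.11. The Cgn probe, whose values were used in choosing Cgn, lists the same RNA, so the difference is a description with no p. BC021767 was at -4.02 without LPS array 3 and at -2.35 with normexp background. Its deviations within groups correlated with those of the Cgn probe at r = 0.999 over 8 arrays, the closest of all genes compared.

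**Figure D3:**
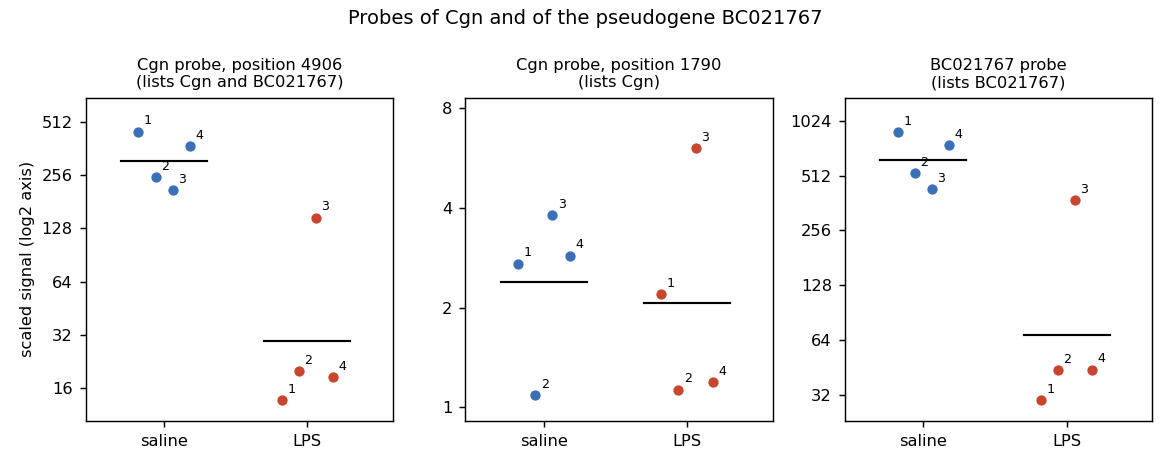
Scaled signal (log2 axes, each probe with its own scale) on 4 saline arrays (blue) and 4 LPS arrays (red), with geometric means as bars. Left is the Cgn probe at position 4906, whose annotation also lists BC021767, middle the Cgn probe at 1790, and right the BC021767 probe. The left and right probes are 10.4-fold and 9.17-fold higher after saline, while the middle probe is above background only on LPS 3.

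Further genes close to Cgn at position 4906 were Ephx1, an epoxide hydrolase (r = 0.993), Rragd, a GTPase of the amino acid sensing pathway (0.984), the potassium channel gene Kcnj9 (0.982) and Pdzk1ip1, a small membrane protein (0.980). They were chosen for this likeness over 8 arrays. Ephx1 read 4393, 3033, 3055 and 3626 on saline arrays 1 to 4 and 808.9, 941.3, 3051 and 1001 on LPS arrays 1 to 4. LPS array 3 was thus inside the saline range of Ephx1, as it was for Rragd at 214.3 against 207.6 to 297.1. Pdzk1ip1 on LPS array 3, at 196.0, stayed under its saline range of 301.0 to 444.4. In limma's fit Ephx1 (-1.50 ± 0.40), Rragd (-1.67 ± 0.44), Kcnj9 (-0.75 ± 0.13) and Pdzk1ip1 (-2.04 ± 0.37) fell, and the calls of Ephx1 (-0.89) and Rragd (-0.96) were lost with the median signal as a covariate and that of Kcnj9 with normexp background (-0.08).

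Cgn did not follow the 6 choroid plexus genes closely. Its r with their mean was 0.644 over 8 arrays (rho 0.476), and -0.10 once LPS arrays 3 and 1 were left out, so the relation rests on those arrays. Saline array 3 was the highest saline array for the mean of the choroid plexus genes and the lowest for that Cgn probe. The protein-coding neighbours of Cgn on the chromosome, Selenbp2 and Pogz, fell by 0.30 ± 0.09 and 0.33 ± 0.07 (limma, adjusted p = 0.0221 and 0.00512), and both calls were lost when arrays were scaled to their medians. Selenbp2 also lost its call without saline array 1, 2 or 4 or LPS array 2 or 4.

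The genes whose deviations were most like those of the 6 choroid plexus genes were Ppp1r1b, an inhibitor of protein phosphatase 1 (r = 0.998), Vat1l (0.998), Pcp4l1 (0.998), the beta-defensin Defb11 (0.998), the protocadherin Pcdh12 (0.998), the cell adhesion gene Cntn1 (0.997), the homeobox gene Msx1 (0.997) and the calcium pump Atp2b2 (0.997). They were ranked among 16421 genes with a symbol well above background on at least 6 arrays, whose median r was -0.43, with 1149 genes above 0.9. Vat1l and Msx1 were also on the list of other choroid plexus genes. Ppp1r1b read 229.8, 160.8, 488.6 and 445.5 on saline arrays 1 to 4 and 76.0, 154.9, 421.3 and 244.2 on LPS arrays 1 to 4. Of these 8 genes only Pcdh12 passed limma's test, at -1.07 ± 0.21 (adjusted p = 0.00446), and its LPS arrays, at 35.4 to 67.8, lay below its saline arrays, at 84.0 to 122.9.

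Other genes of the choroid plexus epithelium varied on the same arrays as the 6. Of 43 listed, 42 were measured (all but Mfrp), 37 were well above background on all arrays, and 34 of the 40 that could be compared had an r above 0.9 with the 6 genes, with a list median of 0.984. Aqp1, the water channel, and Kcnj13, an apical potassium channel, chosen after their values were seen, had r of 0.993 and 0.997, and Aqp1 read 469.3, 306.7, 1133 and 925.0 on saline arrays 1 to 4 and 166.1, 331.0, 850.6 and 483.2 on LPS arrays 1 to 4. Spint2 had the lowest r, 0.05, and read 249.3 to 330.2 after saline and 294.9 to 319.4 after LPS. The summed signal of the list was 14494 to 33058 after saline and 9782 to 29362 after LPS.

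In limma's fit 4 of the 42 fell and none rose, where 49.3% of all genes passed, 27.8% higher and 21.5% lower. The growth factor gene Igf2 fell by 1.26 ± 0.29, from 786.1 to 1437 over the saline arrays to 291.6 to 686.0 over the LPS arrays. Igfbp2, which binds it, fell by 1.16 ± 0.41, and Perp, a desmosome protein, by 1.16 ± 0.34. The fourth, named after its values were seen, was the calcium channel Trpv4 (-0.52 ± 0.16). The median difference over the list was -0.70, with 38 of 42 below 0, and the median SD within groups was 0.92. Without LPS array 3, 10 fell, while without LPS array 1, LPS array 2, saline array 3 or saline array 4 only Igf2 did. With the slide column as a block, which takes up the difference between columns, 10 fell and 2 rose, and with the median signal as a covariate 1 fell, 5 rose and the list median was 0.61. With that covariate Igf2 was at -0.61, and Igfbp2 (-0.16), Perp (-0.42) and Trpv4 (-0.25) had no call. Trpv4 had none with array medians, and Igfbp2 none with the slide row as a block or no filter on dim probes.

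**Figure D4:**
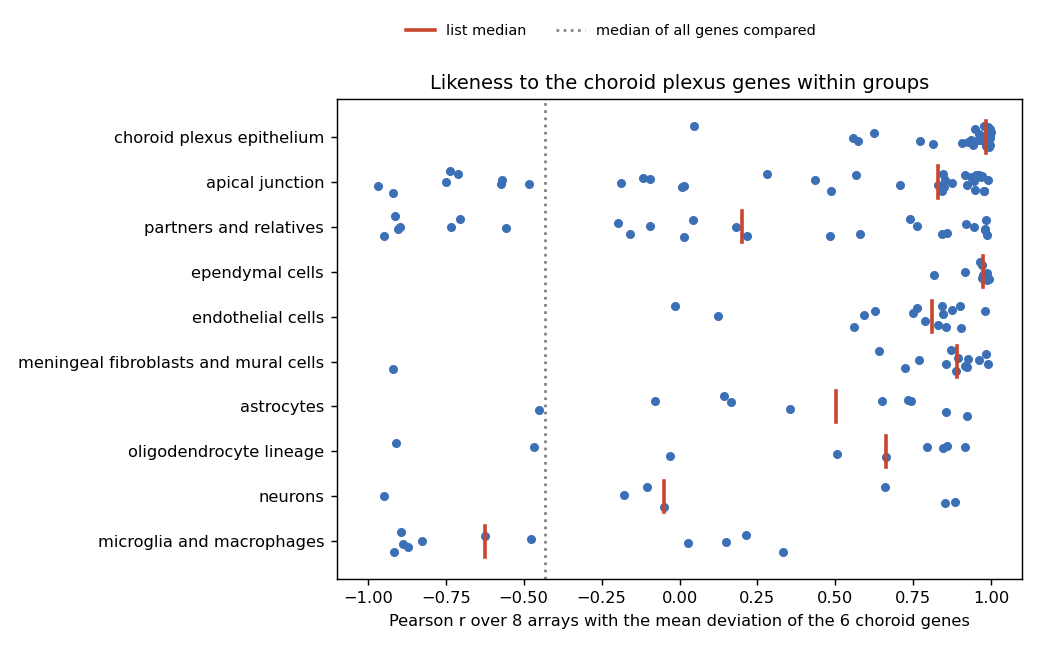
Pearson r over 8 arrays between each gene's deviation from its group mean and that of the mean of the 6 choroid plexus genes, by gene list. Each point is 1 gene, red bars are list medians and the dotted line is the median of all 16421 genes compared, at -0.43. Choroid plexus genes (median 0.984) and ependymal genes (0.972) lie at the right end, and microglia and macrophage genes (-0.62) at the left.

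Among partners and relatives of the members, 26 of 30 were measured (not Dio3, Klb, Otx1 and Kcne4), 6 rose and 10 fell, with a median of -0.35. The share called was 61.5%, where 49.3% of all genes passed, 27.8% higher and 21.5% lower. The first of the partners act with transthyretin in moving retinol and thyroid hormone. Rbp4, the retinol carrier that binds transthyretin, fell by 0.99 ± 0.21 and Stra6, the receptor for Rbp4, by 0.39 ± 0.10. Dio2, which activates thyroid hormone, fell by 0.91 ± 0.13 and the thyroxine transporter Slco1c1 by 0.70 ± 0.21. Slco1c1 varied with the 6 choroid plexus genes within groups (r = 0.986), and Dio2 did not (-0.09), reading 86.8 to 122.3 after saline and 45.5 to 60.0 after LPS. Slco1c1 lost its call without LPS array 1, LPS array 2, saline array 3 or saline array 4. With the median signal as a covariate both Slco1c1 and Rbp4 lost theirs, and Stra6 lost its call with array medians (-0.17).

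Around klotho, the receptor gene Fgfr1 fell by 1.23 ± 0.26, from 966.2 to 1244 after saline to 346.4 to 816.8 after LPS, and its hormone Fgf23 by 0.30 ± 0.11 (limma, adjusted p = 0.0499). Adam10 and Adam17, the proteases that shed klotho, rose by 0.35 ± 0.10 and 0.39 ± 0.12. The klotho relative Lctl was at 0.34 ± 0.19 and did not pass. Fgf23 lost its call with array medians (-0.09), the median signal as a covariate, the mean of its probes, no filter on dim probes or the slide row as a block, and without LPS array 1, 3 or 4 or saline array 2, 3 or 4. Adam10 and Adam17 lost theirs under quantile normalization, with the median signal as a covariate and without LPS array 1, 2 or 4, Adam17 also without saline array 3 or 4.

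Among folate genes, Folr2, the folate receptor of macrophages, fell by 0.87 ± 0.13, with 2451 to 3552 after saline and 1494 to 1780 after LPS. Its r with the choroid plexus genes was -0.56. The proton-coupled folate transporter Slc46a1 rose by 0.38 ± 0.11, while the reduced folate carrier Slc19a1 was at 0.19 ± 0.08 and did not pass. The endocytic receptor Lrp2 was at -0.31 ± 0.19, not past the test. Slc46a1 lost its call under quantile normalization, with the median signal as a covariate and without LPS array 1, 2 or 4 or saline array 3 or 4.

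Relatives of Clic6 went both ways. Clic1 rose by 0.51 ± 0.12 and Clic5 fell by 0.89 ± 0.25, while Clic3 (-0.57 ± 0.53) and Clic4 (0.16 ± 0.08) did not pass. Among channel genes tied to Kcne2, Kcna3 rose by 1.36 ± 0.10, from 11.8 to 14.3 after saline to 29.0 to 35.5 after LPS. Kcne3 fell by 1.57 ± 0.40 and was well above background on 4 saline and 2 LPS arrays. Kcnq1, which pairs with Kcne2, read 17.4 to 37.7 after saline and 5.97, 6.51, 35.8 and 7.85 on LPS arrays 1 to 4, with -1.43 ± 0.57 (limma, adjusted p = 0.0654), LPS array 3 lying in the saline range. Kcne1 (0.17 ± 0.20), the inositol transporter Slc5a3 (-0.47 ± 0.22) and the Otx relative Crx (0.13 ± 0.09) did not pass. The call of Clic5 was lost with normexp background (-0.07), with the median signal as a covariate, with the mean of its probes, and without LPS array 2 or 4 or saline array 3 or 4. Kcne3 was at -0.15 with normexp background and at -0.72, with no call, with that covariate, and Kcna3 was at 0.44 with normexp background. In all, 16 of the 26 partners and relatives passed, but only 10 without LPS array 2, saline array 3 or saline array 4, and 7 (3 up, 4 down) with the median signal as a covariate.

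Of 40 apical junction genes, 39 were measured (not Cldn4), 3 rose and 14 fell, with a median of -0.43. The share called was 43.6%, where 49.3% of all genes passed, 27.8% higher and 21.5% lower. Jam3, a junctional adhesion molecule, fell by 1.25 ± 0.34, Ildr2, of the tricellular junction family, by 1.0 ± 0.27 and the scaffold Mpdz by 0.96 ± 0.26. Ybx3, a factor that binds the junction protein ZO-1, rose by 1.56 ± 0.14, from 919.6 to 1058 after saline to 2199 to 3424 after LPS. Nectin2 rose by 0.75 ± 0.13 and F11r, another junctional adhesion molecule, by 0.30 ± 0.08. F11r was at -0.02 under quantile normalization, with no call, and its call was also lost without LPS array 1 or 2 or saline array 4. Cgnl1, or paracingulin, the closest relative of Cgn, named after its values were seen, read 315.2 to 645.8 after saline and 148.9 to 399.2 after LPS and fell by 0.94 ± 0.33 (limma, adjusted p = 0.0459). Cgnl1 varied with the choroid plexus genes at r = 0.990, against 0.617 with the Cgn probe that also lists BC021767. The call of Cgnl1 was lost on leaving out any 1 array other than saline array 2 and LPS array 3. Without LPS array 2 or saline array 4, 11 of the 39 junction genes passed, scaling to the array medians gave 8 (3 up, 5 down), and the median signal as a covariate gave 11 (5 up, 6 down). With that covariate Jam3 (-0.46), Ildr2 (-0.44), Mpdz (-0.36), Cgnl1 (-0.14) and F11r had no call, and with normexp background Jam3 was at -0.62 and Mpdz at -0.17.

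**Figure D5:**
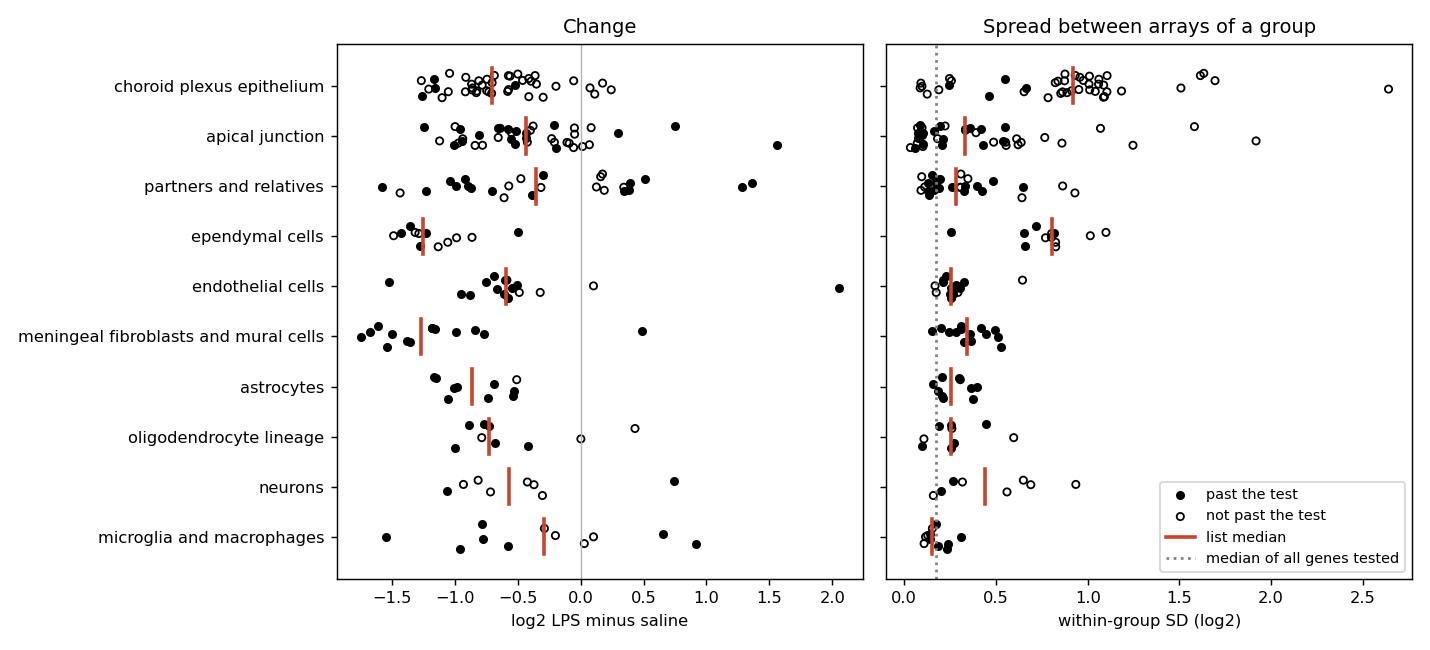
Log2 LPS minus saline (left) and within-group SD (right) of the genes of each list, 1 point a gene, filled where limma's adjusted p was at most 0.05, with list medians as red bars. Choroid plexus genes have a median change of -0.70 and a median SD of 0.92, against a median SD of 0.17 over all genes (dotted line) and 0.15 for microglia and macrophages.

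Markers of other brain cells moved with the 6 genes to different degrees, and their part in the levels of the members was not tested. Ependymal markers were the closest, with 10 of 11 compared above r = 0.9. They were low on LPS array 1 (mean deviation -1.08) and high on LPS array 3 (0.94), as the choroid plexus list was (-1.13 and 1.19). Of the 12 ependymal genes 5 fell, among them Tmem212 (-1.43 ± 0.50), the ciliary dynein gene Dnah5 (-1.35 ± 0.44) and Rarres2 (-1.27 ± 0.40), and their summed signal was 2820 to 6181 after saline and 1379 to 4134 after LPS. With the median signal as a covariate limma called none of the 12 (0 at an unadjusted p under 0.05), and the calls of Tmem212, Dnah5 and Rarres2 were lost without LPS array 2, saline array 3 or saline array 4, those of Tmem212 and Dnah5 also without LPS array 1 or saline array 1. Dnah5 was also lost with normexp background (-0.19). With the slide column as a block 11 of the 12 fell. The share called in the main fit was 41.7%, where 49.3% of all genes passed, 21.5% lower.

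Vessel and connective tissue markers fell with less spread. The share called was 100% for fibroblast and mural markers and 75% for endothelial markers, where 49.3% of all genes passed, 21.5% lower. With the median signal as a covariate, 10 fibroblast and mural markers fell and 1 rose. Endothelial markers then had 4 fallen and 1 risen, where 7477 of 22509 genes passed. Slide columns 3 and 4 alone called 7 fibroblast and mural and 3 endothelial markers. Of 14 markers of meningeal fibroblasts and mural cells 13 fell and 1 rose (median r 0.889, sums of 20381 to 23879 after saline and 17271 to 18539 after LPS). Among them were Lum, a matrix proteoglycan (-1.75 ± 0.32), Tagln (-1.67 ± 0.16) and the collagen Col3a1 (-1.61 ± 0.20). Acta2 rose by 0.49 ± 0.11 on its main probe, but the mean of its probes was -1.35 and quantile normalization ended its call. That main probe made up much of the sums, at 7765 to 9874 after saline and 10725 to 13546 after LPS. The sums thus understate the fall of the other markers. Lum was at -0.93 with normexp background and at -1.03 with the median signal as a covariate. Of 16 endothelial markers 11 fell, led by Egfl7 (-1.52 ± 0.20), Tek (-0.95 ± 0.17) and Flt1 (-0.88 ± 0.16), and Ly6c1 rose by 2.05 ± 0.19 (median r 0.809, sums of 11438 to 13057 and 9543 to 13305). Ly6c1 entered the endothelial sums at 907.1 to 1253 after saline and 3290 to 6102 after LPS. The overlap of these sums is therefore no sign that the other markers were unchanged. Tek was at -0.30 with normexp background.

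Of 10 astrocyte markers 9 fell (median r 0.50, sums of 5260 to 6409 after saline and 2877 to 3915 after LPS), led by Slc1a3 (-1.17 ± 0.14), Fgfr3 (-1.15 ± 0.19) and Gjb6 (-1.05 ± 0.23). Of 9 oligodendrocyte lineage markers 6 fell (median r 0.66, sums of 1789 to 1888 and 1315 to 1474), among them Olig1 (-0.99 ± 0.17) and Pdgfra (-0.77 ± 0.28). Of 8 neuronal markers measured (not Gad2 and Slc17a7), Rbfox3 fell by 1.06 ± 0.14 and Gad1 rose by 0.74 ± 0.17 (median r -0.05, sums of 1988 to 2758 and 1369 to 2341). The share called was 90% for astrocyte, 66.7% for oligodendrocyte lineage and 25% for neuronal markers, where 49.3% of all genes passed, 21.5% lower. With the median signal as a covariate, 4 astrocyte and 5 oligodendrocyte lineage markers fell, where 7477 of 22509 genes passed. Neuronal markers then had 1 fallen and 1 risen. Slide columns 3 and 4 alone called 3 astrocyte, 0 oligodendrocyte lineage and 0 neuronal markers. Genes given as not measured had no probe past the filter on background. The call of Pdgfra was lost without saline array 1, 3 or 4 or LPS array 1 or 2, with array medians, quantile normalization or the slide row as a block, with no filter on dim probes and with the median signal as a covariate, which also ended that of Gjb6. With the slide column as a block 3 neuronal markers fell and 1 rose.

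Microglia and macrophage markers varied little within groups and against the choroid plexus genes rather than with them (median SD 0.15, median r -0.62, where the median r of all genes was -0.43). P2ry12, a receptor of resting microglia, fell by 1.55 ± 0.20, and Lyve1 and Pf4, markers of macrophages at the brain's borders, by 0.95 ± 0.15 and 0.78 ± 0.12. Aif1 rose by 0.92 ± 0.16 and Itgam, which encodes CD11b itself, by 0.66 ± 0.10. The 11 markers summed to 301657 to 372499 after saline and 305660 to 350299 after LPS, ranges that overlap, with mean deviations of 0.06 on LPS array 1 and 0.05 on LPS array 3, the arrays where the choroid plexus genes were lowest and highest of the LPS group.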

How the data were processed

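Gene expression was measured on 8 single-colour Agilent arrays of 1 slide. Per the labels' protocols, 50 ng of RNA was labelled with Cy3, and per the submitters' processing notes spots were read with Agilent Feature Extraction 12.0.3.1. The scanner data as deposited are intensity values, background-subtracted per the file headers. The authors also deposited a table of log2 values, whose scale matched the scanner values after centring each probe on its median (r near 1.00 on every array, column medians -0.07 to 0.08, same direction). No source used here says how that table was made. Its values served as an alternative.

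Control spots and outlier spots were left out, with 6 probes lacking a usable spot, and no spot was saturated. Probes were named by RefSeq accession (35397), symbol (9128), synonym (25) or the file (12049). The 75th percentile of each array was subtracted from its log2 signals, the 35494 probes that were well above background on 4 or more arrays were kept, and the probe with the highest mean signal stood for a gene. Limma 3.58.1 in R 4.3.3 (lmFit, eBayes, Benjamini-Hochberg over 22509 genes, threshold 0.05) compared the groups, and was tested on simulated data. The share of probes well above background was 61.9% to 66.0% after saline and 58.6% to 63.2% after LPS. Precision is limited by the number of arrays. Likeness is a correlation of deviations from group means, with no p. Figures used Python 3.11.15 and matplotlib 3.10.9.

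The members and lists were chosen with earlier results of these data known. Named genes were all members, up to 3 risen and 3 fallen per list with the largest change, all partners and relatives, the 8 genes most like the choroid plexus genes and the 5 most like Cgn. Exceptions are marked where they occur, and 4 list genes are not reported here. Alternatives covered scaling, background, filter, floor, probe choice, slide row and column, variance model, brightness, the deposited values, each array left out and, added after seeing the data, slide columns 1 and 2 or 3 and 4 alone.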

Additional observations from a re-analysis of the deposited data

Results flagged for a closer look

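The Cgn probe at transcript position 4906 had 1 LPS array, replicate 3, far from the others. Its scaled signal was 147.2 and the nearest LPS array was at 20.0, a gap that is 0.842 of the group's range on the log2 scale, above Dixon's 95% critical value for 4 arrays. It was the only such case in 26 groups examined (each probe of the 7 genes in each treatment), and chance gives about 1 in 20. The probe of BC021767, whose RNA the Cgn probe also lists, and Ephx1 and Rragd were also highest on LPS array 3 within LPS. Ephx1 and Rragd were chosen for likeness to the Cgn probe over these arrays, so this was set by the choice. The cause was not tested.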

How the results depend on the processing

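Scaling moved the whole scale: the median of all genes was 0.02, 0.24 with array medians and -0.13 with the 75th percentile taken from probes bright enough on every array, and 56.4%, 72.8% and 40.1% of called genes were higher. Array medians left 8 apical junction genes called. Normexp background put Cgn at -1.93, with an offset of 50 that by itself shrinks differences of dim probes. The slide column as a block gave 12 called genes of the other choroid plexus list. The median signal as a covariate gave 11 junction genes and 7 partners and relatives, and put Ttr at 0.72, Kl at 1.13, Folr1 at 0.25, Clic6 at 0.93, Otx2 at 0.98 and Kcne2 at 0.64, with Cgn at -2.37. Slide columns 3 and 4 alone, with 2 arrays per treatment, called 1242 genes in all, 2 junction genes, 3 partners and relatives and 0 other choroid plexus genes by limma (10 at an unadjusted p under 0.05). Columns 1 and 2 alone called 9303 genes in all. The median signal differed between the treatments, so as a covariate it can take up part of the LPS difference.

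With each array left out in turn, calls ran from 8730 to 13262 over all genes, 1 to 10 for the other choroid plexus genes, 11 to 25 for junction genes and 10 to 18 for partners and relatives. Differences ran from -0.84 to -0.06 for Ttr, -0.63 to 0.23 for Kl, -1.42 to -0.57 for Folr1, -1.49 to -0.31 for Clic6, -1.28 to -0.19 for Otx2, -1.38 to -0.46 for Kcne2 and -4.16 to -3.02 for Cgn. The median r of the 15 pairs ran from 0.968 to 0.991 and that of the other choroid plexus genes from 0.977 to 0.985. Of 59 named genes past the test, 6 lost the call with quantile normalization, 6 with array medians, 3 with normexp background, 6 with the slide row as a block, 7 with no filter on dim probes, 25 with the median signal as a covariate, 43 with columns 3 and 4 alone and 1 to 16 with an array left out. F11r under quantile normalization and Acta2 with the mean of its probes changed sign. BC021767, described above with no p, was counted among the 59, and its place there is not given as a test of it. The labels give no replicate numbers. Arrays given the same number here share a slide column, so the fit with the slide column as a block is also the fit by pairs, and it called 13620 genes in all and ended no call of the 59. The cause of these shifts was not tested. Dim probes, such as Cgn at position 1790 and Kl at 5757, give little more than a bound.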
